A study of Mus musculus with 60 samples.

Results

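The respiratory chain was described through 100 genes of 13986 held by the deposited tables. They were chosen by name: 85 nuclear genes whose symbols begin with Nduf, Uqcr, Cox4 to Cox8 or Atp5, or are Cycs, and 15 genes whose symbols begin with mt-. All 100 were present in each of the 10 tables. They were picked from the rows of those tables, so a chain gene absent from all 10 could not be seen. The nuclear genes comprise 7 core subunits, 31 other subunits and 8 assembly factors of complex I. They also hold 8 genes of complex III, 13 of complex IV, cytochrome c and 17 genes listed under ATP synthase by their Atp5 names. The mitochondrial genes comprise 13 mRNAs and both ribosomal RNAs.

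Poly(A)-enriched RNA came from hippocampus of wild type C57BL/6 mice aged 105 days. Whole, dorsal and ventral hippocampus were each taken from Homecage mice and, 45 minutes after the treatment, from mice given Handling, Restraint or Swim, which gives 12 groups of 5 libraries. All groups share the strain and age, and the labels name no allele or drug. The labels do not say whether dorsal and ventral libraries with the same number share a mouse. Each treatment is tabulated against the Homecage group of its own region, and 1 further table sets ventral against dorsal tissue of Homecage mice. They hold group means only, with sums of 19.9M to 25.01M estimated counts (M, mega) per group, so the values below have no spread between mice and replicate error enters only through the p-values of the authors. Errors written with ± were derived from the authors' fold change and p, by dividing the size of the log2 value by the normal quantile that matches the p. Markers of hippocampal neurons were present in every group, at 1899 to 2570 CPM (counts per mega counts) in sum. Many nuclear chain genes have processed pseudogenes, and how reads shared with them were counted is not stated.

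The respiratory chain moves electrons from NADH and succinate to oxygen through complexes I to IV and uses the proton gradient so formed to drive ATP synthase. Most of its subunits are encoded in the nucleus and imported into the mitochondrion, while a small set of membrane subunits is encoded by the mitochondrial genome, whose strands are read as long precursors and cut into mRNAs and ribosomal RNAs. Both sets must be assembled together, and synapses in the hippocampus depend heavily on the ATP they make.

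Sequences at the starts of nuclear members were read from RefSeq promoter windows on GRCm38.p6, 250 bases before to 50 after the start. Windows were found for 72 of the 85 nuclear members, 78 windows in all. The core of the NRF1 motif, CGCATGCG, a palindrome bound by a regulator of respiratory genes, was present in 12 of the 78 windows (15.4%), against 2.52% of 21263 windows of protein-coding genes and 1.87% of all 32851 windows. The YY1 core AAGATGGC was found on either strand in 13 member windows (16.7%), against 3.05% of coding windows and 2.75% of all. The core of the ETS family motif, CCGGAAG, was found on either strand in 16 member windows (20.5%), against 11.6% of coding windows and 8.86% of all. The TATAAA letters were found on either strand, at any position of the window, in 6 (7.69%), against 12.6% and 13.6%. The ETS and YY1 letters can overlap by 3 bases. Member windows also held more CpG, with a median of 20 against 13 in coding and 7 in all windows. Their median GC content was 58.5%, against 56.3% and 52.7%, and the motif shares were not adjusted for base composition. A match in these windows is a description of letters, not of a bound site.

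4 windows are shown as examples from both sides of the comparison of ventral with dorsal hippocampus: Cox6a1 and Cox8a were lower in ventral tissue, and Uqcrh and Cox7b were higher. None of these 4 calls passed once the trend of all genes on GC content was subtracted. Capitals mark NRF1 and ETS cores.
Cox6a1 at chr5:115348909-115349208, minus strand: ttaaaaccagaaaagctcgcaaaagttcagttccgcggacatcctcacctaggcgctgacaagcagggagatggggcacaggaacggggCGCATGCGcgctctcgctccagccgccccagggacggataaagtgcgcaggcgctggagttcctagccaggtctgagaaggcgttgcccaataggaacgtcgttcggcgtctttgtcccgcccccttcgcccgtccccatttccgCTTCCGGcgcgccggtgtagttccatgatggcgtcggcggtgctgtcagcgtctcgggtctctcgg
Cox8a at chr19:7217567-7217866, minus strand: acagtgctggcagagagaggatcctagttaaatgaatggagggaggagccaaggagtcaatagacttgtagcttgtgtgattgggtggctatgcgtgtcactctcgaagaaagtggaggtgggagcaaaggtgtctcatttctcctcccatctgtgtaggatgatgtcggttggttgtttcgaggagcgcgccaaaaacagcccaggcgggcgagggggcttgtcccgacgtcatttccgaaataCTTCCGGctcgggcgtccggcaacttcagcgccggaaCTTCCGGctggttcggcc
Uqcrh at chr4:116075021-116075320, minus strand: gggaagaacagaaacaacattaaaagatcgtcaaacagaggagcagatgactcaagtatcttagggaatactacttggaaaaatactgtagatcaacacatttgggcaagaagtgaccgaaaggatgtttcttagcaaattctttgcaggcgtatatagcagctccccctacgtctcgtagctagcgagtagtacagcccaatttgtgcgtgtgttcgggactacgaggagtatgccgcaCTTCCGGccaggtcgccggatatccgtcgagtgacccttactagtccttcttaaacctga
Cox7b at chrX:106015450-106015749, plus strand: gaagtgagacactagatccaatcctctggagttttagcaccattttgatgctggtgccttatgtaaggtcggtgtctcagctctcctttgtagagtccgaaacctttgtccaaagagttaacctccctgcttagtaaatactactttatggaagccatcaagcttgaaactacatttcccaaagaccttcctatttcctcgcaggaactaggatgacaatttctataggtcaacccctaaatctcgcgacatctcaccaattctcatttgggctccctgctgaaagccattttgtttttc
The Cox6a1 window holds both an NRF1 and an ETS core and has a GC content of 63.0%. The Cox8a window has 2 ETS cores and the Uqcrh window 1, so genes on both sides of the regional difference carry that motif. No core lies in the Cox7b window, which has a GC content of 43.3%.

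The mitochondrial genome packs its genes so tightly that some share bases. The GENCODE M21 sequence of mt-Atp8, a subunit of ATP synthase, is shown because its last 43 bases, in capitals, are also the first bases of mt-Atp6, the channel subunit.
mt-Atp8 at chrM:7766-7969, GRCm38: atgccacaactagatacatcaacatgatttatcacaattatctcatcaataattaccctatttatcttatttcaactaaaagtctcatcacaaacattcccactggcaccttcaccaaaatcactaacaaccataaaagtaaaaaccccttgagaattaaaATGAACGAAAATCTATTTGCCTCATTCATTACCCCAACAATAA
Reads in that overlap, 21.1% of the length of mt-Atp8, can belong to either gene, and the rule that assigned them is not stated. The following gene pair, mt-Nd4l and mt-Nd4, shares 7 bases.

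Levels of the chain differed most between the genomes. The 15 mitochondrial genes held 5.88% to 9.39% of a group's counts, and the 85 nuclear genes held 0.760% to 0.934%. Counts of mitochondrial mRNAs were 6.68 to 10.05 times those of all nuclear members together. Whole hippocampus gave mitochondrial shares of 9.12% in Homecage, 9.39% after Handling, 9.07% after Restraint and 9.15% after Swim. Dorsal hippocampus gave 5.88%, 6.03%, 6.50% and 6.52% in the same order, and ventral hippocampus 6.79%, 6.01%, 6.47% and 6.15%. The 4 whole groups thus stood above all 8 regional groups. The regions lay furthest apart in the Homecage groups, dorsal being the lowest of its region and ventral the highest of its own. Nuclear shares of whole hippocampus were 0.843%, 0.853%, 0.862% and 0.934%, with Swim the highest. They were 0.789%, 0.792%, 0.783% and 0.760% in dorsal hippocampus and 0.824%, 0.824%, 0.804% and 0.829% in ventral hippocampus, so every ventral group lay above every dorsal group. In bulk tissue, more cells of a kind and more RNA per cell cannot be told apart. Whole and regional tissue are separate sets of libraries, so dissection and library preparation cannot be told apart from tissue either.

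**Figure D1:**
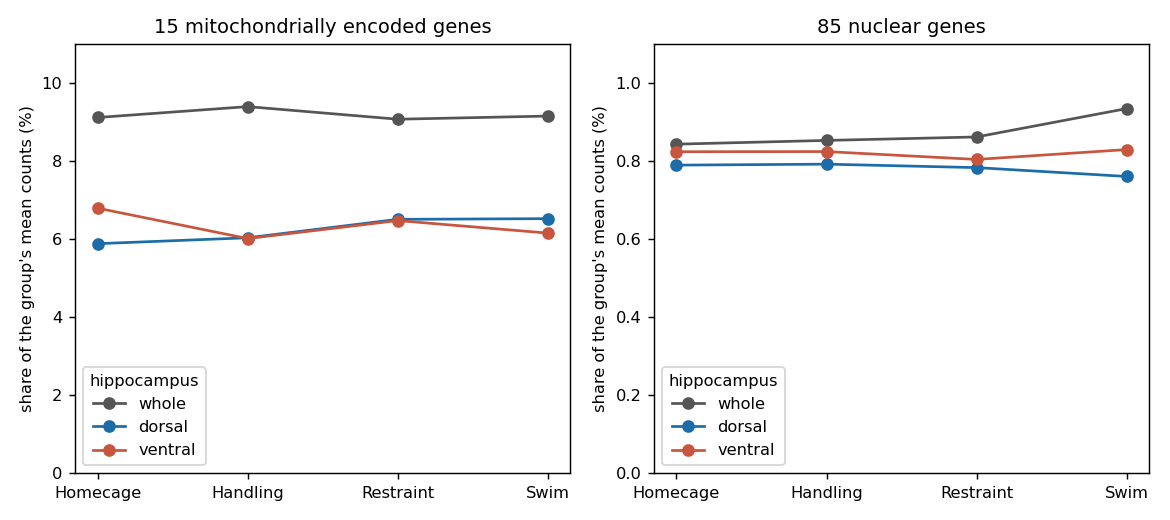
Share of each group's mean estimated counts (percent, linear axes from 0) taken by the 15 mitochondrially encoded genes (left) and the 85 nuclear genes (right), by treatment, with 1 line for each region. The whole groups lie between 9.07% and 9.39% on the left, above the regional groups, and whole Swim is the highest point on the right at 0.934%.

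Among mitochondrial genes, levels per length (group mean over transcript length, scaled to a fixed sum, TPM-like) in whole Homecage tissue were highest for the complex IV subunits and mt-Atp6. The catalytic subunit mt-Co1 stood at 26500, mt-Atp6 at 24421, mt-Co2 at 20808 and mt-Co3 at 18518. The complex III subunit mt-Cytb stood at 11358, mt-Atp8 at 11260, mt-Nd1 at 10365, mt-Nd4 at 9317, mt-Nd2 at 7379, mt-Nd4l at 4965, mt-Nd5 at 4076 and mt-Nd3 at 4036. mt-Nd6, whose coding sense comes from the opposite strand to the other mRNAs, stood far below at 133. The ribosomal RNAs mt-Rnr1 and mt-Rnr2, at 4848 and 4401, are the most abundant RNAs of the organelle in general but were measured here after poly(A) enrichment.

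The gap between whole and regional tissue was uneven along the mitochondrial genome. In CPM computed from the deposited means, mt-Atp8 was 1360 in whole Homecage tissue, 338 in dorsal and 412 in ventral, 3.63 times the mean of both regions. mt-Nd3 was 2.18 times as high in whole tissue, mt-Nd6 1.78 times and mt-Atp6 1.77 times, while mt-Cytb was only 1.15 times as high. The other 10 mitochondrial genes lay between 1.30 and 1.61 times. Nuclear members had a median ratio of 1.06, from 0.573 for Atp5j2 to 1.36 for Atp5s. mt-Atp8 stood at 13.4% to 15.7% of mt-Atp6 counts in the 4 whole groups and at 5.93% to 6.80% in the 8 regional groups, with no overlap. mt-Atp8 and mt-Nd3 have short transcripts, of 204 and 348 bases, but mt-Nd4l, of 297 bases, was 1.32 times as high in whole tissue. No deposited table compares whole with regional tissue, so these ratios have no test. Differences in dissection and library preparation cannot be told apart from tissue in them.

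**Figure D2:**
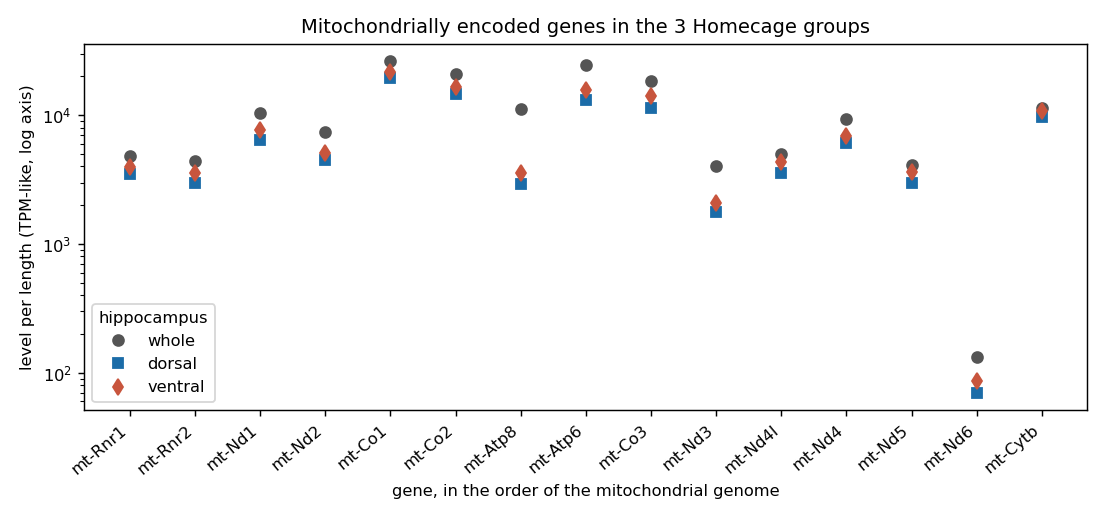
Level per length (TPM-like, log axis) of the 15 mitochondrially encoded genes in genome order, in whole (circles), dorsal (squares) and ventral (diamonds) Homecage groups, 1 group mean per point. Whole tissue is above both regions for every gene, most for mt-Atp8, and mt-Nd6 is lowest, at 133 in whole tissue.

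Nuclear members ranged widely in level per length. ATP synthase had the highest median, 282, led by the catalytic subunits Atp5b at 939 and Atp5a1 at 525. Complex IV had a median of 267, led by Cox4i1 at 634 and Cox6b1 at 486, and complex III 215, led by the core subunit Uqcrc1 at 557 and the hinge protein Uqcrh at 417. Complex I core subunits had a median of 151, with Ndufs1, the largest iron-sulphur subunit, at 405. The other complex I subunits had a median of 134, from Ndufa4 (named for complex I but also found with complex IV) at 622 and Ndufb8 at 272 down to Ndufb2 at 31.9 and Ndufa4l2 at 2.12. Assembly factors, which help build complex I without staying in it, had a median of 27.2, between Ndufaf6 at 5.25 and Ndufaf7 at 40.4. The electron carrier Cycs stood at 36.5. Atp5s and Atp5sl, listed under ATP synthase by name only, stood at 32.4 and 27.1.

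Isoforms known from other tissues were low. Cox6a2, the heart and skeletal muscle form of subunit VIa, stood at 2.46 CPM in whole Homecage tissue against 145 for Cox6a1, the widely expressed form. Cox6b2, the testis form of subunit VIb, stood at 1.24 CPM against 140 for Cox6b1. Ndufa4l2, a paralog of Ndufa4 induced by low oxygen in other cells, stood at 1.17 CPM against 169 for Ndufa4. Of the 3 genes for the same c subunit of ATP synthase, Atp5g3 stood at 149 CPM, Atp5g1 at 132 and Atp5g2 at 16.8. Cox7a2 stood at 92.9 CPM and its relative Cox7a2l at 113.

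Treatments moved almost no nuclear member past the authors' threshold of adjusted p 0.05. In the authors' deposited tables the count was 0 of 85 in whole tissue for all treatments, in dorsal tissue for all treatments, and in ventral tissue after Handling and Restraint, and 1 of 85 in ventral tissue after Swim. Over all genes, the tables called 0.366% higher and 0.0293% lower in whole Handling, and in either direction 0.541% in whole Restraint, 0.395% in whole Swim, 0.125% in dorsal Handling, 0.616% in dorsal Restraint, 0.447% in dorsal Swim, 0.856% in ventral Handling and 2.39% in ventral Restraint. The members' counts of 0 are near these backgrounds. At an unadjusted p under 0.05, the authors' tables gave 1, 2 and 15 nuclear members higher and none lower in whole tissue after Handling, Restraint and Swim. Of all genes 2.76%, 2.51% and 2.97% were higher there, and 2.30%, 1.41% and 2.22% lower. They gave 0 after dorsal Handling, where 1.61% of all genes were higher and 1.23% lower. After dorsal Restraint 1 was higher and 5 lower, where 3.34% of all genes were higher and 6.26% lower. After dorsal Swim 1 was higher and 13 lower, where 4.89% of all genes were higher and 6.28% lower. In ventral tissue they gave 0 after Handling, where 4.62% of all genes were higher and 2.66% lower. After ventral Restraint 2 were lower and none higher, where 5.29% of all genes were lower and 7.45% higher. After ventral Swim 8 were higher and 4 lower, where 13.1% of all genes were higher and 10.9% lower.

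The single call was Atp5d, the delta subunit in the central stalk of ATP synthase. Its level was 102 CPM in ventral Homecage tissue, 111 after Handling, 110 after Restraint and 120 after Swim. In dorsal tissue it was 117 CPM in Homecage, 107 after Handling, 100 after Restraint and 91.9 after Swim. Homecage and Swim were thus the lowest and highest groups in ventral tissue and the highest and lowest in dorsal tissue. Atp5d rose by 0.24 ± 0.07 on the log2 scale in ventral Swim (adjusted p = 0.0156, the authors' deposited table), where 4.65% of all genes were called higher and 2.29% lower. Its transcripts have a GC content of 60.4%, and with the trend of all genes on GC content subtracted from the authors' deposited table the value was 0.04 (adjusted p = 0.994).

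In whole tissue after Swim nearly all nuclear members had values above 0 without passing the test. The median log2 fold change of the 85 was 0.16, 80 were above 0, and the median of all genes was 0.00, with 51.4% above 0. All 31 other complex I subunits, all 7 core subunits and all 8 complex III genes were above 0, as were 16 of 17 ATP synthase and 12 of 13 complex IV genes. The highest values in the authors' deposited table were 0.37 ± 0.16 for Atp5e, the epsilon subunit of ATP synthase, 0.37 ± 0.16 for Uqcrq, a small subunit of complex III, and 0.30 ± 0.20 for Ndufaf8, each at adjusted p = 0.819. The lowest were Ndufaf4 at -0.06, Cycs at -0.06 and Atp5s at -0.05. Uqcrq stood at 47.1 CPM in whole Homecage, 44.9 after Handling, 52.3 after Restraint and 60.8 after Swim. Cox4i1 stood at 279, 291, 293 and 337 CPM in that order, so Swim was the highest of the 4 groups for both genes. The mitochondrial genes did not share this: their median was -0.00, with 7 of 15 above 0, and 0.09 with the trend of all genes on GC content subtracted. Mitochondrial ribosomal proteins, listed for comparison, had 69 of 77 above 0 and a median of 0.11, with none called. Blood markers summed to 199 CPM in whole Homecage and 382 after Swim, all 5 above 0, and oligodendrocyte markers to 3383 and 4139 CPM, all 7 above 0; their part in the nuclear values was not tested. With the trend on transcript length subtracted, the nuclear median was 0.09.

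In dorsal tissue after Swim most nuclear members lay below 0. The median was -0.08 and 21 of 85 were above 0, against 51.8% of all genes. Oligodendrocyte markers summed to 4424 CPM in dorsal Homecage and 5102 after Swim, all 7 above 0, and Mobp was called higher in the authors' deposited table (0.29 ± 0.07, adjusted p = 0.0122); their part in the nuclear values was not tested. The lowest values in the authors' deposited table were -0.38 ± 0.17 for Uqcrq, -0.38 ± 0.13 for Cox8a, a small subunit of complex IV, and -0.37 ± 0.12 for Atp5d, with adjusted p = 0.400, 0.222 and 0.192. The highest were Ndufaf4, a complex I assembly factor, at 0.24 ± 0.10, Ndufaf6 at 0.20 ± 0.15 and Ndufs1 at 0.11 ± 0.06. After Restraint in dorsal tissue the median was -0.01, with Ndufa4l2 at -0.49 ± 0.24, Ndufaf8 at -0.41 ± 0.22 and Ndufs7, the subunit that holds the last iron-sulphur cluster of complex I, at -0.36 ± 0.12, and Cox6b2 at 0.50 ± 0.36 on the other side (the authors' deposited table). In ventral Swim the nuclear median was 0.00, with Uqcrq at 0.33 ± 0.16, Ndufs7 at 0.29 ± 0.11 (adjusted p = 0.0669) and Ndufa4l2 at 0.29 ± 0.19 highest, and Cox6b2 at -0.26 ± 0.22, Atp5s at -0.20 ± 0.10 and Ndufaf1 at -0.16 ± 0.07 lowest (the authors' deposited table). Ndufa4l2 and Cox6b2 rest on 1.02 to 1.66 CPM in every group.

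The remaining treatments left the nuclear members nearer to 0. In whole tissue the medians were 0.03 after Handling, with 60 of 85 above 0, and 0.03 after Restraint, with 65 above 0. The authors' deposited tables had Atp5g2 highest in both, at 0.21 ± 0.12 and 0.30 ± 0.09 (adjusted p = 0.101 after Restraint). Next came Cox5a at 0.16 ± 0.08 and Atp5k at 0.11 ± 0.08 after Handling, and Ndufaf6 at 0.21 ± 0.13 and Ndufaf8 at 0.19 ± 0.16 after Restraint (the authors' deposited tables). Cox6a2 was lowest in both, at -0.30 ± 0.17 and -0.27 ± 0.16. Atp5g2 stood at 16.8 CPM in whole Homecage, 19.4 after Handling, 20.9 after Restraint and 19.6 after Swim, so all 3 treated groups were above Homecage. In whole tissue 48 of the 85 nuclear members were above Homecage in all 3 comparisons and 1 was below in all 3. The 3 comparisons share 1 Homecage group. In dorsal Handling the median was 0.00 and the values ran from -0.26 ± 0.28 for Ndufaf8 to 0.11 ± 0.07 for Ndufa3. In ventral Handling the median was -0.01, from -0.18 ± 0.11 for Atp5s to 0.25 ± 0.25 for Cox6b2, and in ventral Restraint -0.03, from -0.35 ± 0.21 for Cox6b2 to 0.18 ± 0.18 for Ndufaf8. Of the related lists, the authors' deposited tables called 3 genes by treatment, 1 each in lists of 77, 23 and 11 genes. Over all genes 4.65% were called higher and 2.29% lower in ventral Swim, and 0.856% in either direction in ventral Handling. The called genes in ventral Swim were Mrps12, of the small mitochondrial ribosomal subunit, at 0.35 ± 0.11 and the RNA-binding protein gene Fastk at 0.23 ± 0.07. In ventral Handling it was the uncoupling protein gene Ucp2 at 0.57 ± 0.14. All 3 were called lower in ventral than in dorsal Homecage tissue, at -0.41 ± 0.15, -0.29 ± 0.09 and -0.34 ± 0.13 in the authors' deposited table, which shares the ventral Homecage libraries.

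**Figure D3:**
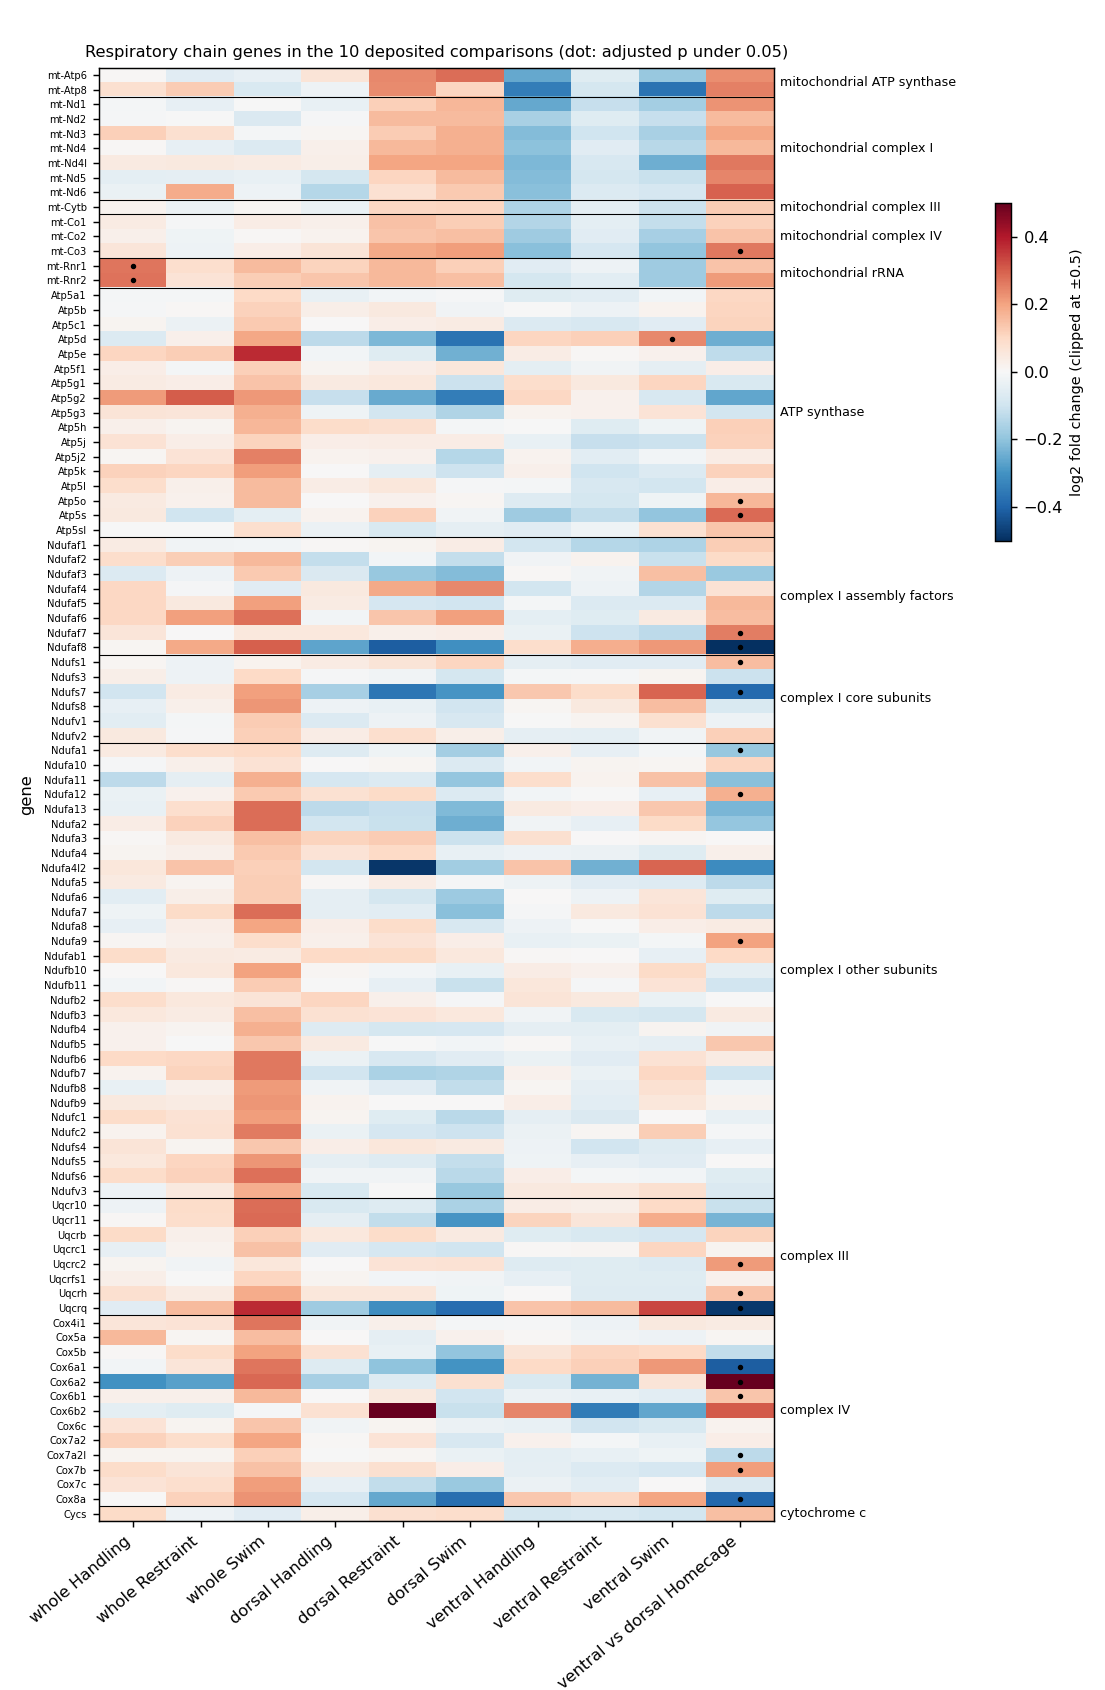
Log2 fold change (colour, clipped at ±0.5) of members in the 10 deposited comparisons, grouped by complex, with a dot where the authors' adjusted p is under 0.05. Dots are few outside the last column, whole Swim is pale red through the nuclear genes, and the mitochondrial genes at the top are red in dorsal Restraint and Swim and blue in the ventral treatments.

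Mitochondrial genes had values of 1 sign within most regional comparisons, without passing the test. In dorsal tissue all 15 were above 0 after Restraint (median 0.16) and after Swim (median 0.16), and 9 of 15 after Handling (median 0.02). In ventral tissue all 15 were below 0 after Handling (median -0.21), Restraint (median -0.06) and Swim (median -0.16). In the authors' deposited tables none of these values passed at adjusted p 0.05. At an unadjusted p under 0.05, 5 were lower in ventral Handling (2.66% of all genes) and 7 in ventral Swim (10.9% of all genes), and none passed in dorsal tissue or in ventral Restraint. Genes cut from the same precursors share their source, so the 15 are not independent of each other. The 3 treatments of a region are set against the same 5 Homecage libraries, so their shared sign is not 3 separate observations.

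mt-Atp6 shows the pattern in levels. It stood at 5041 CPM in dorsal Homecage, 5324 after Handling, 5901 after Restraint and 6054 after Swim. In ventral tissue it stood at 6057 CPM in Homecage, 5074 after Handling, 5785 after Restraint and 5356 after Swim. Ventral Homecage was the highest of the 8 regional groups and dorsal Homecage the lowest. In the authors' deposited tables its log2 fold change was 0.28 ± 0.15 in dorsal Swim and -0.26 ± 0.14 in ventral Handling. mt-Atp8 had the lowest values, -0.34 ± 0.12 in ventral Handling and -0.37 ± 0.13 in ventral Swim (adjusted p = 0.0666 in the authors' deposited table). Among the others, ventral Swim values ran from -0.24 for mt-Nd4l to -0.09 for mt-Nd6, with mt-Co1 at -0.12, mt-Co2 at -0.16, mt-Co3 at -0.20 and mt-Cytb at -0.11. Dorsal Swim values ran from 0.11 for mt-Cytb to 0.28 for mt-Atp6.

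Other measures of the same groups are given beside these values. Mitochondrial transcripts have GC contents of 31.9% to 41.1%, below the median of all genes at 50.6%, and with the trend on GC content subtracted the medians became 0.02 in dorsal Swim, 0.10 in dorsal Restraint, -0.07 in ventral Handling, 0.01 in ventral Restraint and 0.02 in ventral Swim. The sign thus turned in ventral Restraint and ventral Swim. The lowest GC content of all genes was also 31.9%, so mitochondrial genes lie at the edge of the fitted trend. How far the subtraction takes out their own values was not tested, here or wherever the GC trend is subtracted from mitochondrial genes. Choroid plexus markers summed to 242 CPM in dorsal Homecage and 2155 after dorsal Restraint, and to 197 in ventral Homecage and 2075 after ventral Handling, while they were 322 CPM after dorsal Swim and 216 after ventral Swim. Their part in the mitochondrial values was not tested.

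Among the treatments, mitochondrial genes passed in whole tissue after Handling, and these were both ribosomal RNAs. mt-Rnr1, of the small mitochondrial ribosomal subunit, stood at 2740 CPM in Homecage, 3296 after Handling, 2922 after Restraint and 3070 after Swim. mt-Rnr2, of the large subunit, stood at 4121, 4960, 4344 and 4495 CPM. Handling was the highest group for both. In the authors' deposited table they rose by 0.27 ± 0.07 (adjusted p = 0.0291) and 0.27 ± 0.07 (adjusted p = 0.0331), a gain of 20.5% and 20.7%. The 13 mitochondrial mRNAs of that comparison ran from -0.05 to 0.12, and the mRNA share was 8.43% of counts in Homecage and 8.57% after Handling. With the GC trend subtracted, the adjusted p rose to 0.141 and 0.163. Choroid plexus markers summed to 185 CPM in whole Homecage and 272 after Handling, all 7 above 0. Their defining marker Ttr was called higher in the authors' deposited table (2.20 ± 0.55, adjusted p = 0.0277). Ttr was also called higher in whole Restraint (1.86 ± 0.45, adjusted p = 0.00737, the authors' deposited table), as was the listed marker Folr1. There mt-Rnr1 and mt-Rnr2 had log2 values of 0.08 ± 0.05 and 0.07 ± 0.05 and were not called. The part of choroid plexus in the ribosomal RNA values was not tested.

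The regional comparison in Homecage mice gave most of the calls. In the table deposited by the authors, 11 of 85 nuclear members were higher in ventral than in dorsal tissue (12.9%) and 7 lower (8.24%). Over all genes 18.4% were higher and 20% lower, and the members' shares lay below both, with no test of that gap. The median was 0.02, with 48 of 85 above 0. With total-count scaling, which shifts this table by 0.04 log2, 25 were higher and 4 lower, so the members' split depends on the scaling. The shares of all genes under that scaling are not given, so these counts cannot be set against 18.4% and 20%. Of the 18 calls, Cox7a2l, Ndufa1 and Ndufaf8 were lost.

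Members higher in ventral tissue came from all 4 complexes held. In complex I they were Ndufs1 at 0.15 ± 0.05, Ndufa9, which binds near the junction of the arms, at 0.20 ± 0.06, Ndufa12 at 0.18 ± 0.07, and the assembly factor Ndufaf7, a methyltransferase, at 0.26 ± 0.07 (the authors' deposited table). In complex III they were the core protein Uqcrc2 at 0.21 ± 0.06 (adjusted p = 0.000683) and Uqcrh at 0.14 ± 0.06 (the authors' deposited table). Complex IV gave Cox7b at 0.21 ± 0.06 (adjusted p = 0.00103), Cox6b1 at 0.14 ± 0.06 and Cox6a2 at 0.57 ± 0.24 (the authors' deposited table). ATP synthase gave Atp5o, the stalk protein that confers oligomycin sensitivity, at 0.17 ± 0.06. Atp5s, listed there by name only, stood at 0.28 ± 0.11. Cox6a2 had the largest value of the 100 members in this table and rests on mean counts of 42.2 and 69.8. Uqcrc2 stood at 166, 167, 173 and 174 CPM in dorsal Homecage, Handling, Restraint and Swim, and at 197, 189, 188 and 187 CPM in ventral tissue, so every ventral group was above every dorsal one.

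Members lower in ventral tissue came from complexes I, III and IV. The authors' deposited table gave Uqcrq at -0.48 ± 0.19, Cox6a1 at -0.41 ± 0.13, Cox8a at -0.39 ± 0.13, Ndufs7 at -0.39 ± 0.14, Ndufa1 at -0.19 ± 0.08, Cox7a2l at -0.13 ± 0.06 and the assembly factor Ndufaf8 at -0.53 ± 0.22. Cox6a1 was thus lower where its isoform Cox6a2 was higher, though Cox6a2 rests on mean counts of 42.2 in dorsal and 69.8 in ventral Homecage. Of 4 listed parvalbumin interneuron markers, the authors' deposited table called Tac1 (0.88 ± 0.14) and Syt2 (0.25 ± 0.10) higher in ventral Homecage tissue. Pvalb and Kcnc1 were not called, and the part of these cells in the Cox6a2 value was not tested. Cox8a stood at 185 CPM in dorsal Homecage and 146 in ventral Homecage. After Swim the order was turned, with 145 CPM in dorsal and 167 in ventral tissue. Cox6a1 behaved alike, at 161 and 125 CPM in Homecage and 133 and 145 CPM after Swim. With the GC trend subtracted, 10 of the 18 calls remained: Atp5o, Cox6a2, Cox6b1, Cox7a2l, Ndufa1, Ndufa12, Ndufa9, Ndufaf7, Uqcrc2 and Uqcrq. Cox6a1, Cox8a, Ndufs7, Ndufaf8, Atp5s, Cox7b, Ndufs1 and Uqcrh no longer passed.

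**Figure D4:**
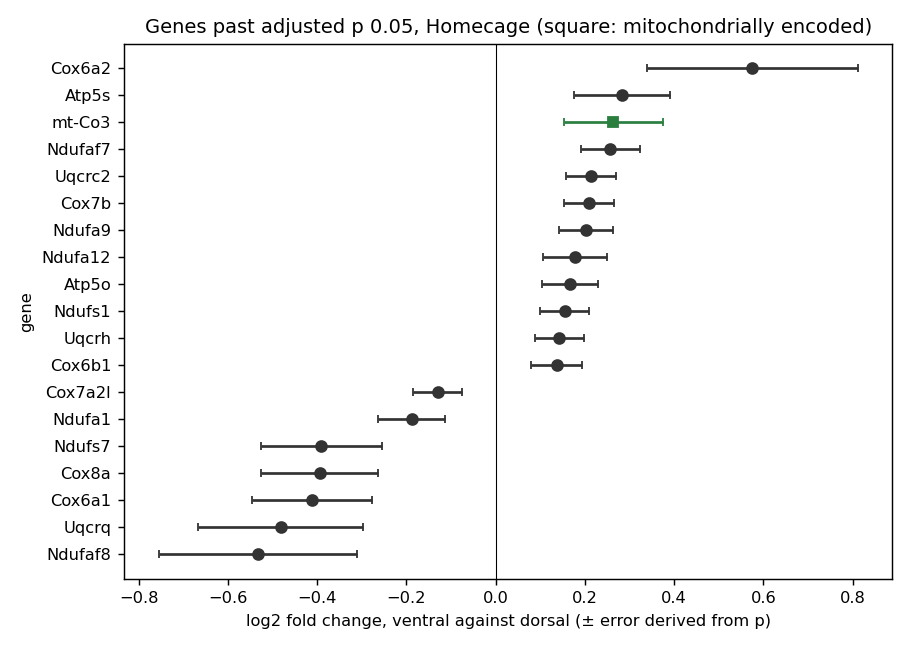
Log2 fold change (x axis) of the 19 members past adjusted p 0.05 in ventral against dorsal Homecage tissue, from the authors' deposited table, with bars of ± 1 derived error. The 12 positive values run from 0.14 for Cox6b1 to 0.57 for Cox6a2, the square is mt-Co3, and the 7 negative values reach -0.53 for Ndufaf8.

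All 15 mitochondrial genes were above 0 in ventral tissue (median 0.21), from 0.11 for mt-Co1 to 0.30 for mt-Nd6. mt-Co3 alone passed, at 0.26 ± 0.11 (adjusted p = 0.0477, the authors' deposited table), and stood at 5061 CPM in dorsal and 6239 CPM in ventral Homecage tissue. After the treatments it stood at 5354, 5739 and 5810 CPM in dorsal and at 5393, 5870 and 5463 CPM in ventral tissue, so the gap was seen in the Homecage pair. With the GC trend subtracted its adjusted p was 0.409. Related lists went the same way only in part, in a comparison where 18.4% of all genes were called higher and 20% lower. The authors' deposited table had 6 of 14 citrate cycle enzymes higher and none lower, among them Idh3a at 0.24 ± 0.05 and Cs, citrate synthase, at 0.15 ± 0.05. Sdha of complex II was higher by 0.20 ± 0.05. Among 16 listed regulators of mitochondrial biogenesis the authors' deposited table had the coactivator Ppargc1a higher by 0.65 ± 0.08 and its partner Esrrg by 0.53 ± 0.08. Lower were Esrra at -0.45 ± 0.12, Nrf1 at -0.27 ± 0.08 and Gabpb2 at -0.32 ± 0.08, and the rest were not called. Mitochondrial ribosomal proteins had 5 of 77 higher and 9 lower, shares below those of all genes. Oligodendrocyte markers were lower in ventral tissue in 7 of 7 cases (4424 and 2971 CPM in sum) and hippocampal neuron markers in 5 of 5 (2570 and 1899 CPM); their part in the chain's values was not tested.

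Whether the regions answered a treatment alike was tested by subtracting the dorsal from the ventral log2 fold change, with a z test on derived errors adjusted over all 13500 to 13533 genes. After Handling and Restraint no member of either genome passed, where 0.0889% and 1.98% of all genes did. At an unadjusted p under 0.05 the same test gave none after Handling, and 6 nuclear members higher and 3 lower after Restraint, where 8.91% of all genes were higher and 4.11% lower. After Swim 7 of 85 nuclear members were higher in ventral tissue (8.24%, against 6.93% of all genes) and 1 lower (against 3.29%). These were Atp5d, Cox6a1, Cox8a, Ndufa11, Ndufs7, Uqcr11 and Uqcrq, and, on the other side, Ndufaf4. The largest difference was that of Uqcrq, 0.72 ± 0.24 (adjusted p = 0.0319, from errors derived from the authors' p), which stood at 55.8 and 43.4 CPM in dorsal Homecage and Swim and at 41.2 and 52.2 CPM in ventral tissue. The smallest adjusted p was that of Atp5d, 0.61 ± 0.14 (adjusted p = 0.00247, likewise from the authors' p). Cox6a1, Cox8a, Ndufs7 and Uqcrq were also called lower in ventral Homecage tissue. Both responses rest on the Homecage groups that make up the regional comparison, so the results share those libraries. No mitochondrial gene passed, though all 15 had lower values in ventral tissue after Handling, Restraint and Swim (medians -0.22, -0.22 and -0.32). These treatments share the same Homecage groups, so they are not separate observations. The smallest adjusted p was 0.0524, for mt-Nd3 after Swim, and 11 of 15 were lower at an unadjusted p under 0.05, as were 12.5% of all genes.

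GC content ordered the nuclear members within most comparisons. Split into 4 near-equal bins by the GC content of their transcripts, the 22 members at 40.3% to 47.9% had a median of 0.03 in dorsal Swim with 13 above 0, and the 21 members at 55.3% to 60.4% a median of -0.19 with 1 above 0. In ventral Swim the same bins had medians of -0.07 with 3 above 0, and 0.13 with 19 above 0. In ventral against dorsal Homecage they were 0.09 with 17 above 0, and -0.18 with 4 above 0. The rank correlation of log2 fold change with GC content across the 85 members was -0.63 in dorsal Swim, 0.69 in ventral Swim and -0.52 between regions; across all genes it was -0.60, 0.70 and -0.37. These are correlations across genes of the same libraries, and genes are not independent replicates. In whole Swim the correlation was 0.48, but both end bins lay above 0, at medians of 0.12 and 0.22. With the GC trend of all genes subtracted, none of the 8 Swim differences passed and 1 other member, Cox7c, did (0.36, adjusted p = 0.0420, from the authors' values).

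**Figure D5:**
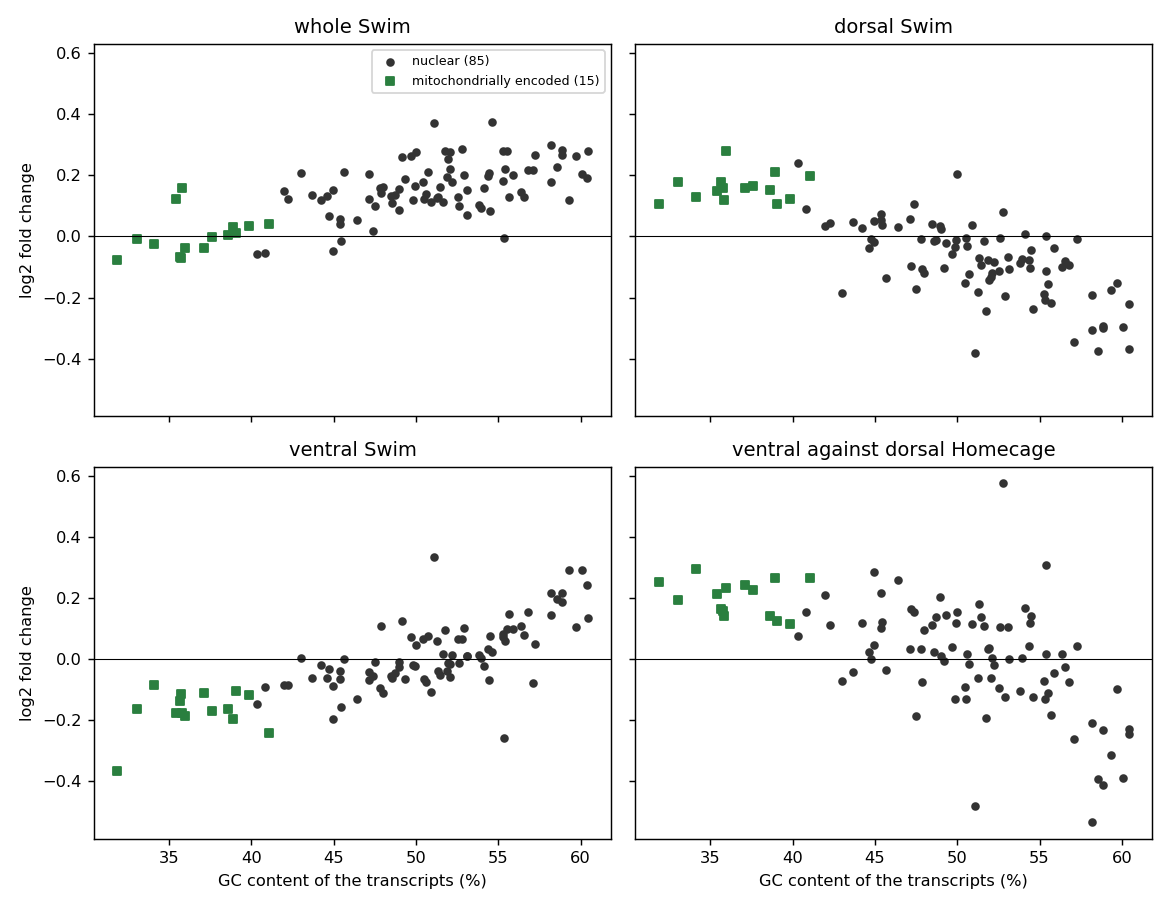
Log2 fold change (y axis) against GC content of the transcripts (x axis, percent) for the 85 nuclear (circles) and 15 mitochondrially encoded members (squares) in 4 comparisons. Points slope down in dorsal Swim and in ventral against dorsal Homecage, slope up in ventral Swim, and in whole Swim 80 of the 85 circles lie above 0.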

How the data were processed

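RNA of 60 libraries, 5 in each of 12 groups, was poly(A)-enriched and sequenced, per the labels' protocols. Bowtie 0.12.2 and mm8 are listed in the submitters' processing notes without a step; neither the counting program nor the authors' test is given in the sources used here. Per the file headers, each of 10 deposited tables holds the mean estimated count of either group, a fold change (a ratio after the authors' scaling), its log2 value, a p-value and an adjusted p-value. Group means summed to 19.9M to 25.01M estimated counts (M, mega), which limits the precision of low genes; depth per library is not used here. No values per library were used, so the calls are the authors', at adjusted p 0.05, in place of a planned count test.

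Of entries with the same gene ID, 1 was kept. CPM divides a group mean by its table's total, and level per length uses GENCODE M21 transcript lengths. Derived errors divide the absolute log2 fold change by the normal quantile of p. Regional responses were compared by a z test on these errors, with Benjamini-Hochberg adjustment over all genes. The z test is approximate and ignores pairing. It was run on simulated normal values, drawn independently for each region with these errors. That run could not check the authors' test, pairing of regions or a GC trend in the responses. Alternatives were total-count scaling (also without mitochondrial genes), lowess trends on GC content or length (fraction 0.3), a minimum summed mean of 100, an adjusted p of 0.01 and a t quantile with 8 degrees of freedom. Of the gene IDs, 13953 of 13986 had a GC content and length on GRCm38, which is not the build named by the submitters; coordinates printed are GRCm38 only. Named genes are all mitochondrial members, called members, the 3 highest and 3 lowest nuclear values of a comparison (fewer where the values lay near 0), the highest and lowest levels per complex, fixed isoform pairs and called members of related lists; CPM examples such as Uqcrq and Cox4i1 in whole Swim were chosen after their values were seen. The members and lists were chosen with earlier results of these data known. Python 3.11.15, numpy 2.4.6, scipy 1.17.1, pandas 2.3.3, statsmodels 0.14.6 and matplotlib 3.10.9 were used. Replicates are separate libraries; that they came from separate mice is the submitters' statement for each condition. The values of 1 member are not reported here.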

Additional observations from a re-analysis of the deposited data

Results flagged for a closer look

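8 nuclear members differed between the regions in their response to Swim, by a z test of the ventral less the dorsal value, on errors derived from the authors' p with Benjamini-Hochberg adjustment over 13533 genes. They make up 9.41% of the 85, where 10.2% of all genes differed, so their number is near the background. Atp5d, of the central stalk of ATP synthase, had a difference of 0.61 (adjusted p = 0.00247), from 0.24 in ventral and -0.37 in dorsal tissue in the tables deposited by the authors. In complex IV, from the authors' values, the difference was 0.57 for Cox8a (adjusted p = 0.00730) and 0.51 for Cox6a1 (adjusted p = 0.0238). In complex III, from the authors' values, it was 0.72 for Uqcrq (adjusted p = 0.0319) and 0.48 for Uqcr11 (adjusted p = 0.0363). In complex I, from the authors' values, it was 0.59 for Ndufs7 (adjusted p = 0.0141), 0.34 for Ndufa11 (adjusted p = 0.0458) and -0.39 for the assembly factor Ndufaf4 (adjusted p = 0.0219). In each case the ventral and dorsal values had opposite signs. With the GC trend of all genes subtracted from each of the authors' tables, none of the 8 passed, and the difference for Atp5d became 0.22 (adjusted p = 0.950).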

How the results depend on the processing

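No paired analysis was possible because the tables hold group means and no values per library; for the same reason leaving out a replicate was not run. No value changed sign under any alternative among the members called as deposited. At an adjusted p of 0.01 the counts became 0 for mitochondrial members in whole Handling and between regions, 0 for nuclear members in ventral Swim, 6 between regions and 2 for the Swim difference. With the GC trend subtracted, the nuclear counts became 0 in ventral Swim and 1 for the Swim difference, and the mitochondrial counts 0 in whole Handling and 0 between regions; with GC and then length subtracted they were 0 in all 4 cases. With the length trend subtracted, mitochondrial members called were 2 in ventral Swim, 4 between regions and 3 for the Swim difference, and the nuclear Swim difference had 5. Total-count scaling gave 29 nuclear and 4 mitochondrial members between regions, and 1 mitochondrial member with a Swim difference; without mitochondrial genes in the totals these were 29, 7 and 2. A minimum summed mean of 100 gave 2 mitochondrial members between regions and 1 with a Swim difference, and the t quantile gave 1 with a Swim difference. The other counts stayed within 1.5 times the reported one. The shares of all genes called under these alternatives are not given, so the counts have no background beside them. Depth limits Cox6a2, Cox6b2, Ndufa4l2, Ndufaf6 and Ndufaf8 most, at under 5 CPM in every group.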
